A study of Bos taurus with 10 samples.

Results

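Bovine IVF embryos, grown from oocytes fertilised in vitro, were set against bovine liver, an adult tissue by the title of the series. Total RNA was measured in both. The comparison used 4 of the 10 arrays, taken by their titles: 3 IVF embryo arrays, each labelled as a pool of total RNA, and 1 liver array. The remaining 6 arrays, 1 each of brain, heart, kidney, lung, muscle and spleen, were used to show whether a liver value also stood above other adult tissues. No treatment or genotype is labelled for any group. The sources used here name neither the stage and number of the embryos nor the breed, sex and age of the adult donors. All samples were hybridised to a human expression array, so each bovine transcript was read by probes designed for a human gene and is named here by that human symbol. A dim probe set may therefore mark a poor match of bovine sequence as well as a low transcript level, so no probe set's level was compared with another's.

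The adult liver makes most of the proteins of blood plasma, packs lipids into lipoproteins, breaks down amino acids and foreign compounds, and stores and releases glucose. Most of this work is done by hepatocytes, beside macrophages, stellate cells, endothelial cells and bile duct cells. The preimplantation mammalian embryo is a small group of dividing cells that sorts into trophectoderm, the outer epithelium that founds the placenta, a pluripotent inner cell mass, and hypoblast, which lines the inner cell mass. KRT8 and KRT18, a keratin pair of simple epithelia, are present in trophectoderm and, in the adult, in hepatocytes and other simple epithelia.

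Intensities were present for 10186 probe sets other than the manufacturer's controls. After quantile normalization of all 10 arrays, a probe set was tested if the embryo mean, taken over log2 values, or the liver value lay above the common median of 145.7, so that probe sets bright in liver alone were included. All differences below are embryo minus liver on the scale log2(normalised intensity + 72.2), with the standard error (SE) of the fit and limma's adjusted p, and negative values are lower in embryos. On this scale the change of a dim probe set is understated. The spread came from the 3 embryo arrays alone, and the single liver array was assumed to vary like an embryo array. The labels leave it unsaid whether each embryo array holds its own pool, so the p-values measure only the spread between these arrays, which may be technical. In bulk RNA, fewer cells of a type and less RNA per cell cannot be told apart.

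The liver array stood apart from the rest of the series. Its Spearman correlation with the embryo arrays was 0.373 to 0.446 and with the other tissues 0.251 to 0.495, while the other tissues correlated with each other at 0.434 to 0.788, with the embryos at 0.381 to 0.662, and the embryo arrays with each other at 0.831 to 0.944. It had the lowest median deposited intensity, 99.2 against 124, 160.4 and 221 on the embryo arrays. On the liver array 202 probe sets read over 10 times the value of every other array, 58 of them above 1000, against 12 to 128 on the other tissue arrays. The 5′ to 3′ ratio of the GAPDH controls, a measure of RNA integrity, was 0.358 in liver and 0.461, 0.488 and 0.463 on the embryo arrays. The ratio of the ACTB controls went the other way, with 0.838 in liver and 0.566, 0.728 and 0.604 on the embryo arrays. In liver it rested on dim values, 53.8 and 64.2, below the median of that array. On the other tissue arrays it ran from 0.311 to 2.65, so no reading of RNA integrity is drawn from it. The part of these array differences in the results was not tested. Checked against markers, the liver array read above all 9 other arrays for ALB, TTR, HP, C3 and FABP1, and the embryo arrays above all 7 adult arrays for KRT8 and KRT18. Quantile normalization gives probe sets of the same rank the same value on every array, so the highest value, 8428, recurs below.

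Of 6796 probe sets tested, 1408 (20.7%) were higher and 1385 (20.4%) lower in embryos than in liver at an adjusted p of 0.05, and 908 and 1039 of these differed at least 2-fold. With the brightest tested probe set standing for each of 4741 genes, 919 genes (19.4%) were higher and 984 (20.8%) lower, and the median difference over these genes was 0.05. On the intensities as deposited that median moved to 0.52 over the probe sets, from 0.07, and 68.1% of calls were higher in embryos, against 50.4% after quantile normalization. Without the second embryo array 457 probe sets were higher and 803 lower, and without the first 866 were higher. When the 6 other tissues were pooled as a group, so that the spread between tissues entered the error, 511 were higher and 785 lower. With the 3 embryo arrays averaged to 1, so that only the spread between tissues remained, the counts were 142 and 465. Of the 173 genes named below with a call, 93 did not pass in that fit. For 39 of them the call was already lost with the other tissues pooled, as given below. The other 54, with adjusted p-values of 0.0551 to 0.242 with averaged arrays, were ACLY, ACOX2, APOB, APOE, ATIC, ATP1B3, C1QA, CALR, CCNB2, CCT6A, CEBPA, CFB, CFI, CKS2, CP, DIO1, ECHS1, ETF1, FMO5, GHR, GMPS, HLA-DQB1, HMGCS1, HSPA4, IMPDH2, KHK, KLF4, KLF5, KLRD1, KRT8, MT1G, NAP1L1, NDUFB1, NPM1, PCNA, PDPN, PGD, PRDX1, PSMC6, PSMF1, RBM25, SOX2, SRSF5, STAB1, STMN1, SULT1A1, TAP2, TF, TIAM1, TIMP1, TJP1, TNFAIP6, UGT2B28, UTP18.

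**Figure D1:**
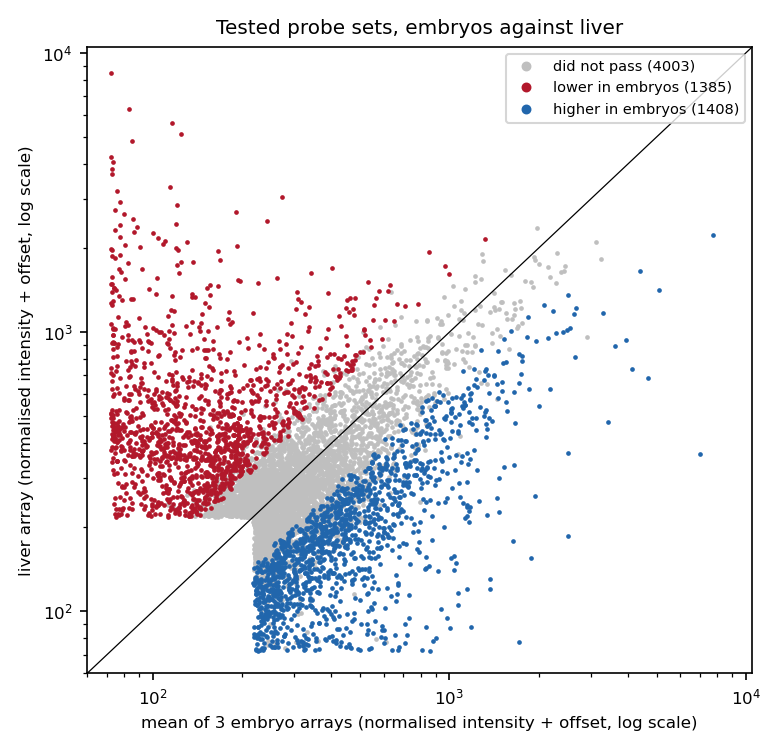
Mean of the 3 embryo arrays (horizontal) against the liver array (vertical) for the 6796 tested probe sets, both as normalised intensity plus the offset on log axes. Red points (1385) were lower and blue points (1408) higher in embryos at an adjusted p of 0.05, grey points did not pass, and the line marks equal values. The probe sets farthest from the line lie at the left edge, bright in liver and near the offset in embryos.

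The filter shaped these counts. A probe set tested through liver alone had to be lower in embryos, and 1695 entered that way, of which 1131 were called lower. Another 1703 entered through the embryos alone, of which 921 were called higher. Among the 3398 probe sets above the common median in both, 487 were higher and 254 lower. A filter asking for 3 bright arrays of 10 would have dropped 973 of the tested probe sets, 704 of them called lower and 52 called higher. For each gene list below the counts are therefore also given over every gene of the list with a value, without any filter. In that fit 835 of 6732 genes (12.4%) were higher and 940 (14%) lower. Over all tested genes, 557 of the 984 lower and 317 of the 919 higher calls also passed with the other tissues pooled. Against these shares the pooled counts of each list are to be read.

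Most genes of plasma proteins made by the liver were lower in embryos. Of 23 plasma carrier and protease inhibitor genes with a value, 17 were lower and 1 was higher in embryos without a filter, and their median difference was -2.58. Of the 21 tested, 18 entered through liver alone, 18 were called lower, and 17 of those also passed in the fit that pools the other tissues. ALB, the main carrier protein of plasma, read 13.1, 8.81 and 14.4 on the embryo arrays and 429.9 in liver. The 6 other tissues read 1.29 to 12, so only the liver array stood high, and the difference was -2.58 ± 0.09 (SE, adjusted p = 4.36e-05). A further ALB probe set went the other way without passing, at 129, 195 and 212 in embryos and 75.8 in liver (difference 0.75 ± 0.25, adjusted p = 0.0642).

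TTR, the carrier of thyroid hormone and retinol-binding protein, read 31.8, 7.28 and 33.9 in embryos, 854 in liver and 2.99 to 21.3 elsewhere (difference -3.28 ± 0.19, adjusted p = 0.000295). HP, the hemoglobin scavenger haptoglobin, read 22.9, 27.0 and 20.1, against 909 in liver and 8.52 to 43.2 in the other tissues (difference -3.36 ± 0.11, adjusted p = 4.36e-05). For both genes the 3 embryo values lay inside or close to the range of the other tissues, and liver alone was high. TF, the iron carrier transferrin, read 17.7, 14.3 and 23.6 in embryos and 1953 in liver (difference -4.48 ± 0.17, adjusted p = 7.1e-05), but its further probe set differed by -0.82 ± 0.28 and did not pass (adjusted p = 0.0728). CP, the copper protein ceruloplasmin, read 17.1, 12.4 and 0.915 against 1692 (difference -4.43 ± 0.17, adjusted p = 7.3e-05). AMBP, the precursor of a plasma protease inhibitor, read 0.490, 3.81 and 1.05 against 1364 (difference -4.28 ± 0.09), while a further AMBP probe set read 146 in the embryo mean and 156 in liver. FGL1, a protein secreted by hepatocytes, differed by -4.35.

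Complement genes that passed were lower in embryos. Of 18 complement genes with a value 8 were lower and 0 higher in embryos without a filter, and of the 12 tested 8 were lower, 7 of them also in the fit that pools the other tissues. C3, the central complement component, read 48.2, 38.2 and 38.2 in embryos, 875 in liver and 40.4 to 93.8 in the other tissues (difference -3.06 ± 0.15, adjusted p = 0.000179). CFB, a protease of the alternative pathway, read 10.1, 7.37 and 18.3 against 1246 (difference -3.97 ± 0.15), and its further probe set differed by -1.84 (adjusted p = 0.000898). CFI, which inactivates C3b, differed by -3.73, with kidney at 1027 beside liver at 1294. CD46, a membrane regulator of complement found on most nucleated cells, read 9.34, 4.17 and 6.35 against 891, and both of its probe sets were lower in embryos (-3.61 and -3.73).

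Of 13 coagulation genes with a value, 7 were lower and 1 higher without a filter. The 11 tested gave the same counts, and all 7 lower calls held in the fit that pools the other tissues. F2, prothrombin, read 39.7, 30.4 and 38.4 in embryos, 1998 in liver and 3.50 to 20.3 in the other tissues (difference -4.26 ± 0.12, adjusted p = 2.81e-05). The fibrinogen chains FGB and FGG differed by -4.14 ± 0.10 and -4.26 ± 0.11. For FGB the arrays read 1.3, 1.95 and 0.915 in embryos and 1222 in liver, a complete separation with the highest other tissue at 160.0. KNG1, the kinin precursor kininogen, read 2.71, 0.180 and 0.205 in embryos and 962 in liver, and at most 1.70 in any other tissue (difference -3.82 ± 0.08, adjusted p = 1.68e-05).

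Apolipoprotein genes, for the protein part of lipoprotein particles, that passed were lower in embryos. Of 14 apolipoprotein and lipoprotein genes with a value, 6 were lower and 0 higher without a filter, and the 11 tested gave the same counts, all 6 also in the fit that pools the other tissues. APOA1, of high-density lipoprotein, read 98.3, 100.2 and 84.9 in embryos and 763 in liver (difference -2.33 ± 0.17, adjusted p = 0.000572), and APOB, of low-density lipoprotein, 40.0, 35.3 and 29.6 against 283 (difference -1.73 ± 0.14, adjusted p = 0.000725). APOE, a ligand of lipoprotein receptors, read 1.07, 0.620 and 0.820 in embryos, 1316 in liver and 0.830 to 266 in the other tissues. Its 3 probe sets differed by -4.25, -3.35 and -2.09, all past the threshold. For APOE brain, kidney and lung lay between the embryo arrays and liver. APOH, a phospholipid-binding plasma protein, differed by -4.68 ± 0.09 and APOA2 by -2.38 ± 0.08. The probe set named LPA, in human the apolipoprotein of lipoprotein(a), read 1.07, 1.16 and 1.05 against 516 (difference -3.01 ± 0.07). APOA1, APOE and TTR are also in the hypoblast list, described below.

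**Figure D2:**
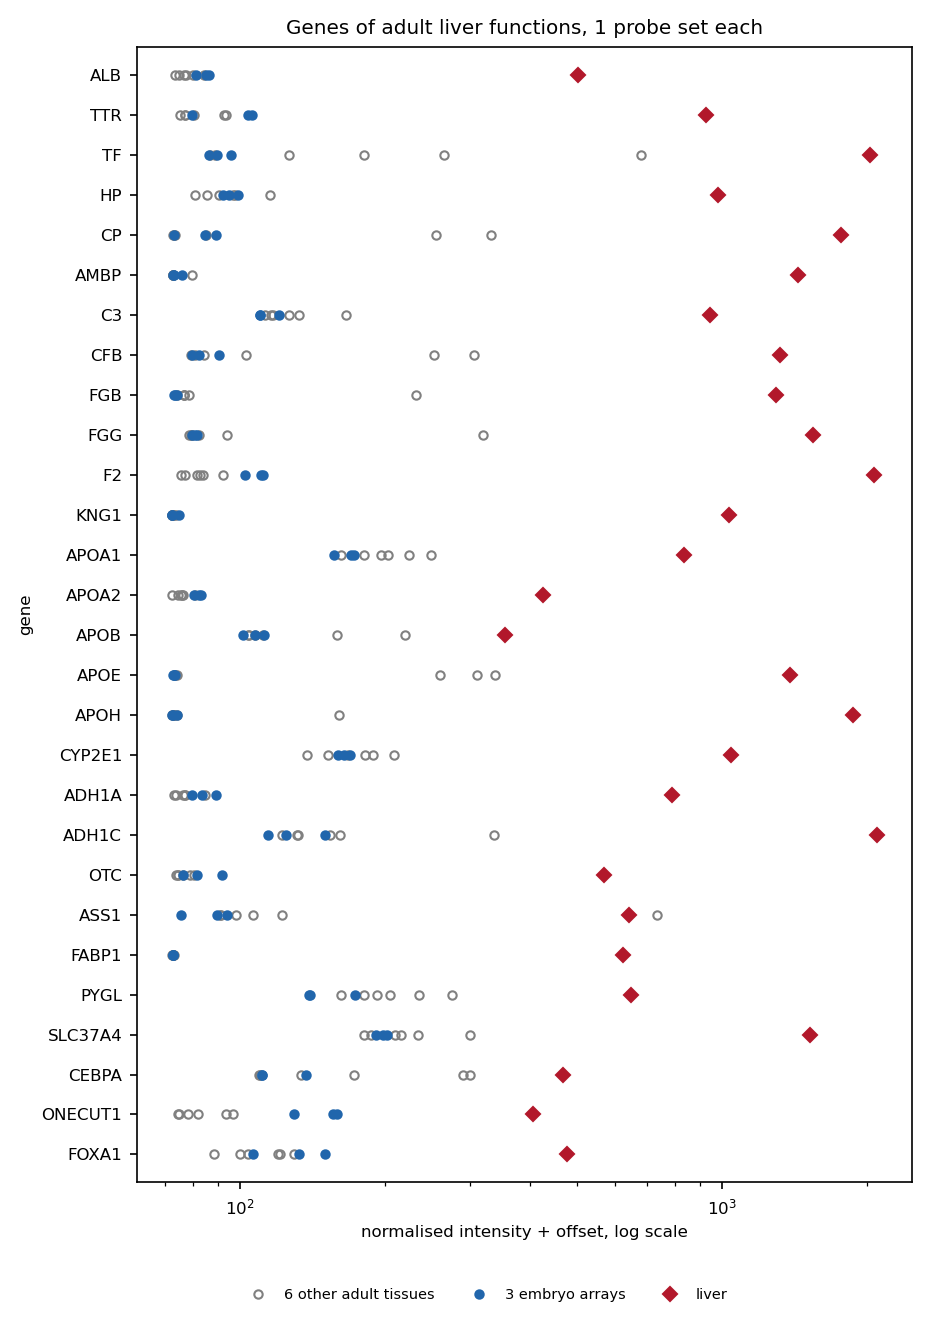
Normalised intensity plus the offset (log axis) of 28 genes of adult liver functions, 1 probe set each, on the 3 embryo arrays (blue), the liver array (red) and the 6 other adult tissue arrays (open circles). Liver stands above all 3 embryo arrays for every gene drawn, and 1 other tissue exceeds liver for ASS1.

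Enzymes that oxidise foreign compounds, alcohols and retinoids were mixed. Of 38 such genes with a value, 16 were lower and 4 higher in embryos without a filter, and of the 29 tested 14 were lower and 3 higher, 10 and 1 of these also in the fit that pools the other tissues. CYP2E1, an ethanol-inducible cytochrome P450 of hepatocytes, read 97.0, 92.7 and 87.4 in embryos, 975 in liver and 65.8 to 137 in the other tissues (difference -2.67 ± 0.17, adjusted p = 0.000335). Its 2 further probe sets differed by -2.85 and -2.48, both past the threshold. ADH1C, an alcohol dehydrogenase, read 77.8, 52.8 and 42.5 against 2024 (difference -4.02 ± 0.22), and ADH1A 11.5, 17.3 and 7.55 against 717 (difference -3.23 ± 0.10). FMO5, a flavin-containing monooxygenase, differed by -2.77 ± 0.32, but a further probe set of it differed by 0.36 ± 0.45 without passing (adjusted p = 0.558). CYP3A4, a major drug-oxidising P450 in human liver, read 93.4, 134 and 171 in embryos and 135 in liver, so that its embryo mean and liver value were below the common median, and was not tested.

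Conjugation enzymes, which attach polar groups to such compounds, gave 8 lower and 1 higher of 25 genes with a value without a filter, and 8 lower and 2 higher of 19 tested. Of these calls, 5 and 2 also passed in the fit that pools the other tissues. UGT2B28, a glucuronosyltransferase, read 3.19, 2.61 and 2.71 in embryos and 1339 in liver (difference -4.23 ± 0.11, adjusted p = 2.27e-05). GAMT, the last enzyme of creatine synthesis, read 0.490, 0.350 and 0 against 439 (difference -2.82 ± 0.08), GSTO1, a glutathione transferase, differed by -2.50 and SULT1A1, a sulfotransferase, by -2.62. The symbols ADH1A and UGT2B28, with LPA above and CTAG2, HERC2P3, HLA-B, HLA-DQB1, HLA-G, MT1F and MT1G below, have no entry of that name in the bovine gene table. The bovine transcripts read by these probe sets are therefore not known.

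Of 35 genes of the urea cycle and amino acid breakdown with a value, 13 were lower and 1 was higher in embryos without a filter. The 27 tested gave 13 and 1, of which 6 and 0 also passed in the fit that pools the other tissues. OTC, the urea cycle enzyme that joins ornithine and carbamoyl phosphate, read 4.03, 9.23 and 19.6 in embryos, 499 in liver and 1.46 to 8.23 in the other tissues (difference -2.78 ± 0.13, adjusted p = 0.000128). ASS1, the next enzyme of the cycle, read 21.9, 17.6 and 3.45 against 571 (difference -2.90 ± 0.18, adjusted p = 0.000344). Kidney, the brightest tissue, read 661 for ASS1, and the call was lost when the spread between tissues entered the error (adjusted p = 0.0649). FTCD, an enzyme of histidine breakdown, read 8.66, 0.50 and 0.580 against 813 (difference -3.56 ± 0.11), and HGD, of tyrosine breakdown, differed by -3.00 ± 0.27. CPS1, ARG1, PCK1, SERPINA1, RBP4, AFP, HNF4A, FOXA2 and NR1H4, other markers of hepatocyte function, were not analysed here because no value carried those names.

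Fatty acid oxidation genes that passed were mostly lower in embryos. Of 27 fatty acid oxidation, ketone body and peroxisome genes with a value, 14 (51.9%) were lower and 0 higher without a filter, beside 14% and 12.4% of all genes. Of the 24 tested, 15 were lower and 1 higher, but only 5 of the lower calls also passed in the fit that pools the other tissues. FABP1, the fatty acid binding protein of liver, read 0.375, 0.400 and 0.710 in embryos, 553 in liver and at most 0.910 elsewhere (difference -3.10 ± 0.07, adjusted p = 1.75e-05). ACAA2, the last enzyme of the mitochondrial beta-oxidation cycle, read 7.81, 27.1 and 29.7 against 972 in liver, with the other tissues from 2.07 to 1023 (difference -3.49 ± 0.21, adjusted p = 0.000334). FABP1 was thus bright in liver alone, while ACAA2 was bright in liver and in at least 1 other tissue. ECHS1, a mitochondrial enoyl-CoA hydratase, differed by -2.35 ± 0.21. HADHB, of the trifunctional protein, differed by -2.28 ± 0.33 and CPT1A, which starts fatty acid import into mitochondria, by -1.0 ± 0.18. With the other tissues pooled the adjusted p was 0.0544 for ACAA2, 0.123 for HADHB and 0.585 for CPT1A. CPT1A also lost its call without the second embryo array (adjusted p = 0.0849).

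Bile acid and steroid enzymes and transporters gave 3 lower and 0 higher of 9 tested, and of 13 with a value without a filter, with a median of -0.20 over the tested genes that turned to 0.26 on the deposited intensities and to 0.0587 over all 13 genes without a filter. All 3 calls also passed with the other tissues pooled. For the 3 called genes liver was the highest of the 10 arrays, with heart, the next, at 158 for ACOX2. ABCB4, the phospholipid transporter of the bile canaliculus, read 42.2, 32.1 and 19.8 in embryos and 1497 in liver (difference -3.93 ± 0.17, adjusted p = 0.000102). SLC27A5, which activates bile acids with coenzyme A, read 82.2, 89.5 and 61.0 against 736 (difference -2.44 ± 0.19). ACOX2, a peroxisomal oxidase of bile acid synthesis, read 12.9, 12.7 and 17.8 against 308 (difference -2.14 ± 0.12).

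Genes that release glucose or take up fructose included 4 lower and 0 higher of 11 tested, and of 14 with a value, and all 4 also passed with the other tissues pooled. SLC37A4, the glucose 6-phosphate transporter of the endoplasmic reticulum, read 119, 126 and 129 in embryos, 1453 in liver and 109 to 229 in the other tissues (difference -2.95 ± 0.17, adjusted p = 0.000242). KHK, ketohexokinase of fructose breakdown, differed by -2.00 ± 0.27 and PCK2, a mitochondrial phosphoenolpyruvate carboxykinase, by -1.85 ± 0.14. PYGL, the liver form of glycogen phosphorylase, read 67.3, 67.6 and 101.2 against 577 in liver (difference -2.11 ± 0.21, adjusted p = 0.00157). Its brain form PYGB read 259.6, 242 and 258 against 268 and did not pass (difference -0.07 ± 0.17, adjusted p = 0.777), a difference that turned to 0.38 on the deposited intensities. The difference between the differences of the 2 forms was not tested.

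Glycolysis and pentose phosphate genes that passed were higher in embryos. Of 17 glycolysis and glucose uptake genes with a value, 6 were higher and 0 lower in embryos without a filter, and the 15 tested gave the same counts, but only 1 call also passed with the other tissues pooled. PGD, of the pentose phosphate path, read 739.9, 669.6 and 338 in embryos and 9.88 in liver (difference 2.94 ± 0.42, adjusted p = 0.00535). The pentose phosphate enzymes TKT and TALDO1 differed by 2.24 ± 0.21 and 1.59 ± 0.26, but lost their calls with the other tissues pooled (adjusted p = 0.0712 and 0.134), and TALDO1 also without the second embryo array (adjusted p = 0.0572). ALDOA, the aldolase of muscle and many other tissues, read 146, 200.1 and 122 against 30.0 (difference 1.14 ± 0.24, adjusted p = 0.0182). All 3 embryo values of PGD and ALDOA stood above liver. The ALDOA call was lost with the other tissues pooled (adjusted p = 0.506) and without the first embryo array (adjusted p = 0.0592), while a further ALDOA probe set differed by 1.59. The glucose transporter SLC2A1 differed by 0.74 ± 0.17, with adjusted p-values of 0.118 with the other tissues pooled, 0.061 without the first embryo array and 0.124 without the second. Lactate dehydrogenase LDHA read 278, 189 and 148 against 93.3, and LDHB 972, 1285 and 1186 against 1521, and neither passed (0.72 and -0.39). Pyruvate kinases PKLR (0.62) and PKM (0.56) and phosphofructokinase PFKM (-0.14, and 0.33 on the deposited intensities) did not pass either.

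Among other enzymes, HMGCS1, of sterol synthesis, was higher in embryos at 350.6, 318 and 218 against 92.7 (difference 1.14 ± 0.26). The HMGCS1 call was lost without the first (adjusted p = 0.0701) or the second embryo array (adjusted p = 0.125), and its further probe set differed by 1.69. MAT2A, a methionine adenosyltransferase of most tissues, read 294, 247 and 149 against 445 and did not pass (-0.81 ± 0.32), with a further probe set higher in embryos (1.13 ± 0.30, adjusted p = 0.0347). For MAT1A, the liver form, the values were 965 on the first embryo array, 22.4 and 20.7 on the others and 4.21 in liver. The mean of its log2 values and the liver value lay below the common median, and it was not tested. Of the sodium pump beta subunits, ATP1B3 read 3779, 4181 and 4181 in embryos and 667 in liver (difference 2.48 ± 0.17, adjusted p = 0.000437). ATP1B1, the more widespread form, read 218, 291 and 205 against 553 (difference -1.02 ± 0.22, adjusted p = 0.0185), below 848 to 1539 in the other tissues. The ATP1B1 call was lost with the other tissues pooled (adjusted p = 0.0886) and without the first embryo array (adjusted p = 0.071).

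Of 27 iron, heme and metal genes with a value, 13 were lower and 2 higher in embryos without a filter. Of the 24 tested, 14 were lower and 2 higher, 11 and 0 of these also with the other tissues pooled. The metallothioneins, small metal-binding proteins, were the largest: the probe set named MT1F read 13.5, 12.4 and 22.7 in embryos and 2308 in liver (difference -4.75 ± 0.16, adjusted p = 4.36e-05), and that named MT1G 70.3, 37.2 and 38.2 against 2773 (difference -4.57 ± 0.23). Further probe sets of both were lower too (-2.73 and -1.57). Of the 14 lower genes 7 were metallothioneins, which are near-identical copies, so the member read by each probe set is uncertain, and TF, CP and HP are given above among the plasma proteins.

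Hormone and growth factor genes of the liver gave 10 lower and 1 higher of 16 tested. Of these calls, 6 and 0 also passed with the other tissues pooled. Without a filter 9 were lower and 2 higher of 22 with a value. DIO1, which activates thyroid hormone, read 1.93, 6.14 and 7.33 in embryos and 611 in liver (difference -3.14 ± 0.11, adjusted p = 4.36e-05), with kidney, the next brightest, at 431. MST1, the hepatocyte product macrophage-stimulating protein, read 4.91, 4.05 and 4.28 against 531 (difference -2.98 ± 0.08), and GHR, the growth hormone receptor, 15.8, 25.1 and 19.8 against 378 (difference -2.28 ± 0.14). IGF1, the growth factor made by liver under growth hormone, differed by -2.61 ± 0.17, but not with the other tissues pooled (adjusted p = 0.171), where its values ran from 59.2 to 1988. Liver transcription factors gave 4 lower and 1 higher of 10 tested, 3 and 1 of these also with the other tissues pooled. Without a filter they gave 4 lower and 1 higher of 13 with a value. Their median of -0.08 over the tested genes turned to 0.39 on the deposited intensities. CEBPA read 65.0, 39.1 and 39.0 in embryos and 396 in liver (difference -1.97 ± 0.20), FOXA1 60.5, 78.3 and 34.2 against 406 (difference -1.89 ± 0.22) and ONECUT1 84.3, 86.6 and 57.7 against 333 (difference -1.45 ± 0.16). For ONECUT1 the 3 embryo values, though below liver, lay above all 6 other tissues, whose highest was 24.8. CEBPB differed by -1.91 ± 0.17, with an adjusted p of 0.0946 with the other tissues pooled.

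The liver was also set against the mean of the 6 other tissues in the same fit, where 18.5% of tested probe sets were higher and 9.14% lower in liver. The filter shaped these shares too, because probe sets bright only in another tissue were not tested. With a filter of 3 bright arrays 501 probe sets were higher in liver, against 1257. Both comparisons share the liver array, so their values are only given side by side. The SE and adjusted p of liver against the other tissues also came from the 3 embryo arrays alone. The spread between the 6 tissues is not in them, here and wherever liver is set against the other tissues below. For ALB the liver stood 2.69 ± 0.08 above the other tissues, for C3 2.89 ± 0.14, for CYP2E1 2.61 ± 0.16 and for FABP1 3.10 ± 0.07, all past the threshold and close in size to the differences from embryos. Other genes were lower in embryos without standing high in liver among the adult tissues. NR3C1, the glucocorticoid receptor, read 26.9, 27.6 and 29.9 in embryos, 383 in liver and 349 to 697 in the other tissues. It differed by -2.18 ± 0.16 between embryos and liver (adjusted p = 0.000636) and by -0.45 ± 0.15 between liver and the other tissues (adjusted p = 0.0912), and its further probe sets were lower in embryos too (-2.21 and -1.41). AQP1, a water channel of endothelium and kidney, differed by -1.46 ± 0.16 between embryos and liver and by -1.77 ± 0.15 between liver and the other tissues, and RGS5, of pericytes, by -1.15 ± 0.22 and -1.39 ± 0.20. Neither difference from embryos passed with the other tissues pooled (adjusted p = 0.544 and 0.321), and that of RGS5 was also lost without the first (adjusted p = 0.0521) and the second embryo array (adjusted p = 0.08).

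Markers of other liver cells were counted in the same way. Macrophage and myeloid markers gave 3 lower and 0 higher of 8 tested, but only 1 call also passed with the other tissues pooled. Without a filter 6 were lower and 0 higher of 17 with a value. All 17 summed to 1453 to 1847 on the embryo arrays and 3326 in liver. C1QA, a complement subunit made by macrophages, read 33.0, 37.9 and 39.9 in embryos and 314 in liver (difference -1.82 ± 0.17). MRC1, the mannose receptor, read 123, 139 and 150.2 against 805 (difference -2.07 ± 0.18), and CD5L differed by -1.61 ± 0.19, but with the other tissues pooled the adjusted p was 0.125 for MRC1 and 0.287 for CD5L. Endothelial markers gave 4 lower and 1 higher of 13 tested, 2 and 0 of these also with the other tissues pooled. Without a filter they gave 4 lower and 1 higher of 15 with a value. Their median of -0.23 turned to 0.19 on the deposited intensities, 0.051 with a filter at the 75th percentile and 0.0508 without one. The 15 genes summed to 2669 to 4018 on the embryo arrays and 3312 in liver. STAB1, a scavenger receptor of liver sinusoids, read 127, 116 and 95.1 against 466 (difference -1.54 ± 0.19), and KDR, a receptor of vascular growth factor, differed by -2.29 ± 0.18. FLT1, a receptor of the same family also made by trophoblast, was higher in embryos at 183, 189.7 and 478 against 6.43 (difference 2.08 ± 0.49). The call of FLT1 was lost with the other tissues pooled (adjusted p = 0.0689), without the first (adjusted p = 0.0521) and without the second embryo array (adjusted p = 0.0868).

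Stellate cell, fibroblast and matrix markers gave 5 lower and 2 higher of 22 tested. Of these calls, 1 and 1 also passed with the other tissues pooled. Without a filter 7 were lower and 1 higher of 31 with a value. The median of -0.31 over the tested genes turned to 0.078 on the deposited intensities. The 31 genes summed to 6181 to 6901 on the embryo arrays and 7075 in liver. COL4A2, a basement membrane collagen, read 2.33, 7.28 and 30.0 against 301 (difference -2.14 ± 0.20), while TIMP1, a metalloproteinase inhibitor, was higher in embryos at 523, 451 and 481 against 35.1 (difference 2.37 ± 0.18, adjusted p = 0.000594). TIMP2, its relative, was lower (-1.24 ± 0.16), but not with the other tissues pooled (adjusted p = 0.369). Lymphocyte markers gave 1 call in each direction of 10 tested, and 1 lower and 3 higher of 18 with a value without a filter, with a median of -0.03 that turned to 0.44 on the deposited intensities and 0.082 with a filter at the 75th percentile and 0.14 without one. KLRD1 was higher (1.06 ± 0.19) and PRF1 lower (-1.10 ± 0.19). Both calls were lost without the second embryo array (adjusted p = 0.0652 and 0.0664), and that of PRF1 with the other tissues pooled (adjusted p = 0.154). The 18 lymphocyte markers summed to 2725 to 2776 on the embryo arrays and 2322 in liver. For red blood cell markers 1 of 4 tested passed, and 1 of 7 without a filter: HBB, a beta-type globin, read 622, 413 and 508 in embryos and 208 in liver (difference 1.05 ± 0.25). Its call was lost with the other tissues pooled (adjusted p = 0.175), without the first (adjusted p = 0.056) and without the second embryo array (adjusted p = 0.0677).

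Antigen-presenting genes of the major histocompatibility complex gave 5 lower and 2 higher of 11 tested. Only 1 lower and 1 higher call also passed with the other tissues pooled. Without a filter 6 were lower and 1 higher of 16 with a value. The probe set named HLA-DQB1, of class II, read 38.8, 45.1 and 35.7 in embryos and 369 in liver (difference -1.98 ± 0.13). That named HLA-B, of class I, read 3.48, 2.72 and 2.52 against 372 (difference -2.56 ± 0.16), but with the other tissues pooled, which ran from 1.47 to 1798, its adjusted p was 0.269. That named HLA-G differed by -1.23 ± 0.19, but not with the other tissues pooled (adjusted p = 0.457) or without the second embryo array (adjusted p = 0.0594), and of its further probe sets 1 was lower and 2 did not pass. TAP2, a peptide transporter of the class I path, was higher in embryos (1.13 ± 0.19), but not without the second embryo array (adjusted p = 0.0783). These symbols name members of a family of similar genes, so which bovine member was read is uncertain.

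Trophectoderm markers, among them both keratins, were mostly higher in embryos where they passed. Of 18 trophectoderm markers with a value, 7 were higher and 2 lower in embryos without a filter. Of the 15 tested 8 were higher and 1 lower, 5 and 0 of these also with the other tissues pooled. The 1 lower gene was ATP1B1 (-1.02 ± 0.22), given above. KRT8 read 1927, 1491 and 1278 in embryos, 106 in liver and 2.21 to 229 in the other tissues (difference 3.18 ± 0.26, adjusted p = 0.000909). With the 3 embryo arrays averaged the adjusted p of KRT8 was 0.0803. KRT18 read 463, 365 and 386 in embryos, 58.1 in liver and 0.445 to 1.29 elsewhere (difference 1.87 ± 0.17, adjusted p = 0.00117). For both keratins all embryo values stood above every adult array, and for KRT18 liver stood above the 6 other tissues, by 0.84 ± 0.16 (adjusted p = 0.0175). SFN, an epithelial 14-3-3 protein, read 6224, 8428 and 6224 in embryos against 293 in liver and 139 to 571 in the other tissues (difference 4.25 ± 0.24, adjusted p = 0.000253), and its 2 further probe sets differed by 3.69 and 3.50. TFAP2C, a transcription factor of trophoblast, read 339, 353 and 365 against 14.4 (difference 2.29 ± 0.12, adjusted p = 0.000212). A further TFAP2C probe set read 259, 275 and 28.5 in embryos and 3.42 in liver and did not pass (adjusted p = 0.156).

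Of 18 tested genes of epithelial junctions and keratins, 7 were higher and 1 lower. With the other tissues pooled 4 and 0 of these also passed. Without a filter 6 were higher and 1 lower of 21 with a value. TJP1, of tight junctions, read 697, 603 and 583 in embryos and 104 in liver (difference 1.99 ± 0.18), and LGALS3, a galectin of epithelia, 573, 649 and 412 against 49.5 (difference 2.32 ± 0.27). For TJP1 liver was also below the other tissues (-1.52 ± 0.17, adjusted p = 0.00305). CD24, a surface protein of bile duct and other epithelia, read 724, 705 and 509 in embryos and 10.4 in liver (difference 3.11 ± 0.25). The CD24 call was lost with the other tissues pooled (adjusted p = 0.0726), where values ran from 3.33 to 764. Further CD24 probe sets differed by 2.16 and 2.25, past the threshold, and by 0.35 ± 0.19 without passing (adjusted p = 0.198). Bile duct markers, CD24 and AQP1 among them, gave 1 higher and 1 lower of 3 tested, and also of 6 without a filter. Neither call of the tested genes passed with the other tissues pooled.

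Pluripotency markers gave 5 higher and 1 lower of 10 tested, and 5 and 0 of 11 with a value without a filter, and all 5 higher calls also passed with the other tissues pooled. Of the 10 tested, 4 had a negative difference, down to -1.16, and the 1 lower call did not pass with the other tissues pooled. The 5 higher genes are given here. SOX2, a core transcription factor of pluripotent cells, read 579.5, 802 and 989.7 in embryos, 0.0650 in liver and 1.01 to 374 in the other tissues, brain being the highest (difference 3.55 ± 0.31, adjusted p = 0.00101, and 0.121 with averaged embryo arrays). LIN28A, a blocker of let-7 microRNA maturation, read 185, 205 and 138 against 3.62 (difference 1.70 ± 0.17) and KLF5 487, 478 and 476 against 11.3 (difference 2.73 ± 0.15). DNMT3B, a de novo DNA methyltransferase, read 231, 246 and 239.7 against 30.9 (difference 1.59 ± 0.13, adjusted p = 0.000725). KLF4 read 1078, 1120.1 and 1032 against 48.5 (difference 3.25 ± 0.16), but liver was here the lowest of the adult arrays, -1.61 ± 0.15 from the mean of the others (adjusted p = 0.00171), and the brightest other tissue reached 1114. No value carried the name POU5F1 alone. The probe set listing POU5F1 with 3 related copies read 628, 554 and 381 in embryos and 16.7 in liver (difference 2.72 ± 0.28, adjusted p = 0.00171), and 3 probe sets listing a copy alone, POU5F1B, POU5F1P3 and POU5F1P4, were higher too (2.17, 3.17 and 2.81). These share sequence, so the gene read is uncertain.

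Hypoblast markers gave 4 lower and 2 higher of 12 tested, and 4 lower and 2 higher of 14 with a value without a filter, with a median of -0.08 that turned to 0.38 on the deposited intensities and 0.0237 without a filter. The 4 lower genes were APOE, TTR, APOA1 and COL4A2, given above. The 2 higher genes, named after their values were seen, were the transcription factor GATA6 (547, 479 and 523 in embryos, 97.8 in liver, difference 1.79) and the protease CTSV (difference 0.83). Neither of these 2 calls passed with the other tissues pooled, while all 4 lower calls did. Oocyte and germ cell markers gave 2 higher and 0 lower of 3 tested, and the 2 calls also passed with the other tissues pooled. Without a filter 2 were higher and 1 lower of 5 with a value, where the median fell to 0.16 from 2.40. DDX4, a germ cell RNA helicase, read 631, 362 and 269 against 1.25 in liver and 0.730 to 10.2 elsewhere (difference 2.68 ± 0.40, adjusted p = 0.00624), and the probe set named CTAG2 699, 516 and 588 against 54.5 (difference 2.40 ± 0.21). Cumulus and granulosa markers, of the cells that surround the oocyte, gave 1 call in each direction of 4 tested, and also of 6 without a filter, with a median of 0.13 that turned to -0.15 with arrays scaled to a common median and to -0.051 with no offset. TNFAIP6, of the cumulus matrix, was higher (1.0 ± 0.17) and INHBA, an inhibin subunit, lower (-0.71 ± 0.18). Neither passed without the second embryo array (adjusted p = 0.0741 and 0.132), and INHBA also failed without the first (adjusted p = 0.09) and with the other tissues pooled (adjusted p = 0.174).

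**Figure D3:**
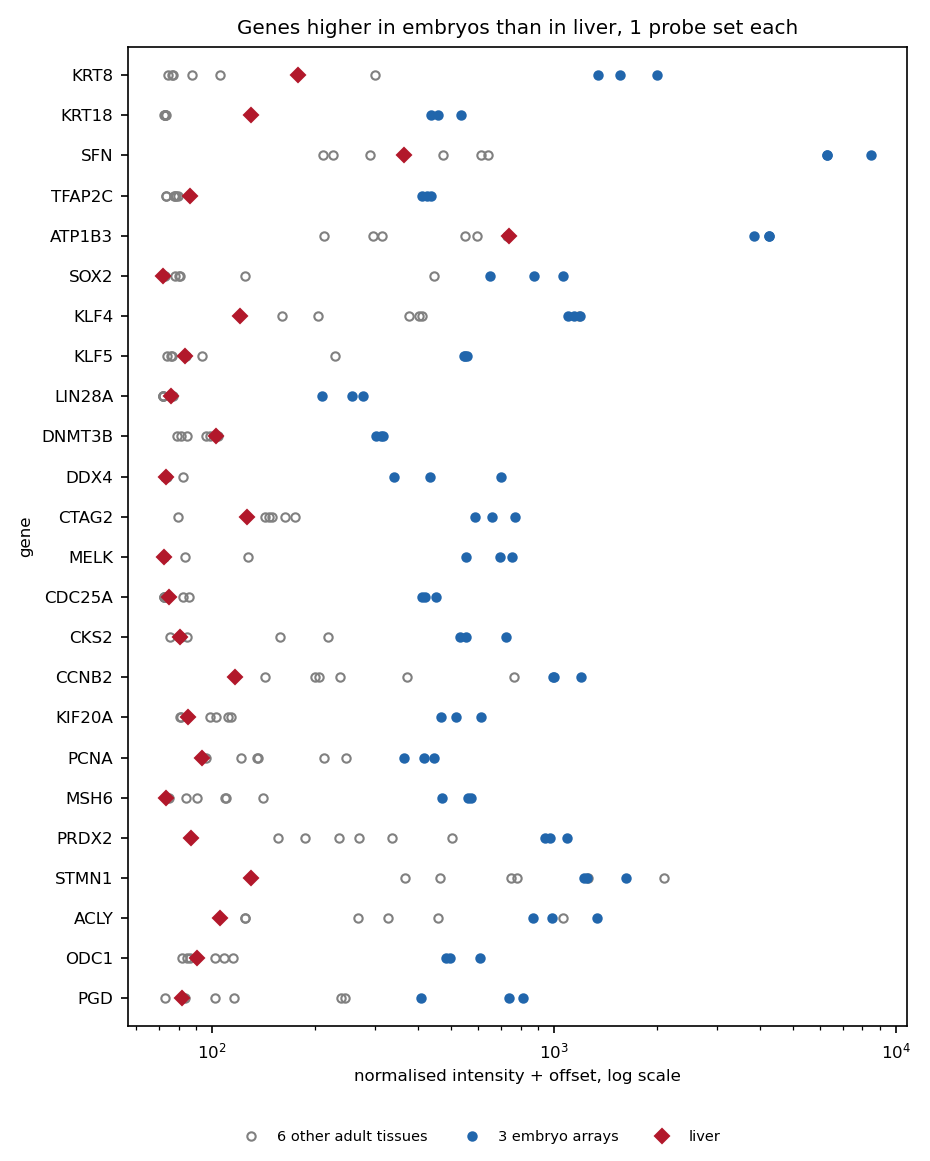
Normalised intensity plus the offset (log axis) of 24 genes higher in embryos than in liver, 1 probe set each, on the 3 embryo arrays (blue), the liver array (red) and the 6 other adult tissue arrays (open circles). All 3 embryo arrays stand above liver for every gene drawn, and liver lies below the lowest other tissue for SOX2, KLF4, CCNB2, PCNA, MSH6, PRDX2, STMN1 and ACLY.

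Genes of cell division were mostly higher in embryos where they passed. Of 34 mitosis genes with a value, 14 were higher and 2 lower in embryos without a filter. The 28 tested gave 16 and 2, of which 14 and 1 also passed with the other tissues pooled, and 20 of the 28 entered through the embryos alone. MELK, a kinase of mitotic cells, read 623, 685 and 484 in embryos, 0.330 in liver and 0.250 to 55.6 in the other tissues (difference 3.19 ± 0.22, adjusted p = 0.000484). CCNB2, a mitotic cyclin, read 932, 1133 and 923 against 44.4 (difference 3.19 ± 0.20), with liver also below the other tissues (-1.22 ± 0.19, adjusted p = 0.00894). CKS2, a subunit of cyclin-dependent kinases, differed by 2.89 ± 0.24, and KIF20A, a kinesin of cytokinesis, by 2.63 ± 0.21. CDC25A, the phosphatase that activates these kinases, read 382, 347 and 339 against 2.77 and at most 13.7 in any other tissue (difference 2.51 ± 0.13, adjusted p = 0.000189).

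DNA replication and repair genes were split, with 10 higher and 8 lower of 31 tested. Of these calls, 8 and 7 also passed with the other tissues pooled. Without a filter 10 were higher and 7 lower of 37 with a value. PCNA, the sliding clamp of DNA polymerases, read 346, 374 and 293 in embryos and 21.6 in liver (difference 2.12 ± 0.20, adjusted p = 0.00126), and MSH6, of mismatch repair, 488, 499 and 399 against 1.14 (difference 2.86 ± 0.19). On the other side ORC6, of the origin recognition complex, read 111, 146 and 107 against 1471 (difference -3.00 ± 0.20), RPA2, a single-strand binding protein, 142, 166 and 126 against 1095 (difference -2.43 ± 0.19) and RAD54L, of homologous recombination, 1.07, 0.80 and 0.915 against 281 (difference -2.27 ± 0.07). For these 3 genes liver also read above all 6 other tissues, whose highest values were 199.6, 159 and 0.965.

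Of 49 DNA methylation and chromatin genes with a value, 20 were higher and 4 lower without a filter, and of the 43 tested 21 and 5, of which 19 and 4 also passed with the other tissues pooled. NAP1L1, a histone chaperone, read 1529, 1509 and 1088 in embryos and 183 in liver (difference 2.49 ± 0.25), and 3 of its 4 further probe sets were higher too. ANP32A (-3.06 ± 0.11), the remodeller subunit SMARCD1 (-2.72 ± 0.19) and the histone demethylase KDM5B (-2.56 ± 0.16) were lower, and their readings in liver of 559, 938 and 505 stood above every other array. For KDM5B 1 further probe set was lower (-2.64) and another was higher in embryos (1.25 ± 0.17, adjusted p = 0.00465). The further SMARCD1 probe set did not pass (-0.46 ± 0.26).

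Genes of RNA processing and protein production that passed were mostly higher in embryos. Over all tested genes 317 of the 919 higher calls also passed with the other tissues pooled, against which the counts below are to be read. Pre-mRNA splicing genes gave 27 higher and 1 lower of 56 tested, and 21 and 1 of 63 with a value without a filter, with a median of 0.74 over the tested genes, but only 7 higher calls also passed with the other tissues pooled. SNRPA1, of the U2 particle, read 1671, 2283 and 1861 in embryos and 473 in liver (difference 1.87 ± 0.22, adjusted p = 0.00298), and DDX39A, an RNA helicase, 223, 172 and 149.9 against 18.9 (difference 1.47 ± 0.19). RBM25 differed by 1.33 ± 0.24. SRSF5 differed by 1.36 ± 0.34, but not without the first (adjusted p = 0.0772) or the second embryo array (adjusted p = 0.138), and its further probe set did not pass (0.53 ± 0.23).

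Translation factors gave 11 higher and 1 lower of 37 with a value without a filter. The 36 tested gave 14 and 1, 6 and 0 of these also with the other tissues pooled. ETF1, the release factor that ends translation, read 377, 389 and 369.9 in embryos and 100.9 in liver (difference 1.38 ± 0.17, adjusted p = 0.00304). PABPC1, which binds poly(A) tails, differed by 1.75 ± 0.23, EIF4E2, a cap-binding protein, by 1.46 ± 0.19 and EIF3D, of initiation factor 3, by 1.43 ± 0.35, but none of these 3 passed with the other tissues pooled (adjusted p = 0.105, 0.0514 and 0.0793). EIF3D also lost its call without the first (adjusted p = 0.0895) and the second embryo array (adjusted p = 0.0994). Ribosome biogenesis genes gave 7 higher and 3 lower of 29 with a value without a filter. The 21 tested gave 8 and 3, 6 and 2 of these with the other tissues pooled. NPM1, a nucleolar chaperone, read 1114, 1143 and 1159 against 306 (difference 1.68 ± 0.16), and its 2 further probe sets were higher too. FBL, the methyltransferase of ribosomal RNA, differed by 1.53 ± 0.27 and POLR1C, a subunit of RNA polymerases I and III, by -1.55 ± 0.18, while a further POLR1C probe set did not pass (0.47 ± 0.19). UTP18 differed by 1.5 ± 0.34, but not without the first (adjusted p = 0.0518) or the second embryo array (adjusted p = 0.116).

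Cytosolic ribosomal proteins gave 12 higher and 3 lower of 49 tested, and 11 higher and 3 lower of 50 with a value without a filter, and their median of 0.23 turned to -0.11 with arrays scaled to a common median. Only 1 of these calls also passed with the other tissues pooled. RPL14 read 5534, 5534 and 3989 in embryos and 1345 in liver (difference 1.83 ± 0.26), but lost its call with the other tissues pooled (adjusted p = 0.0581) and of its further probe sets 1 was higher (1.42 ± 0.18) and 1 lower in embryos (-1.86 ± 0.17). RPL35A differed by 1.38 ± 0.19 (adjusted p = 0.0682 with the other tissues pooled). RPL10A (1.27 ± 0.31) and RPL8 (1.06 ± 0.19) lost their calls without the second embryo array (adjusted p = 0.0714 and 0.0694) and with the other tissues pooled (adjusted p = 0.078 and 0.545).

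Chaperones gave 9 higher and 3 lower of 40 with a value without a filter. The 36 tested gave 11 and 3, 4 and 2 of these also with the other tissues pooled. HSPA4, a large heat shock protein, read 959, 968 and 800.1 in embryos and 182 in liver (difference 1.95 ± 0.19), and both further probe sets were higher too. CCT6A, of the cytosolic chaperonin, differed by 1.75 ± 0.29, but not without the second embryo array (adjusted p = 0.0688). CALR, the calcium-binding chaperone of the secretory path, was lower at 72.2, 72.9 and 175 against 1047 (difference -2.69 ± 0.36), as was its further probe set (-0.97), and TRAP1, a mitochondrial chaperone, read 8.48, 33.8 and 16.6 against 1614 (difference -4.21 ± 0.18). Proteasome genes gave 8 higher and 2 lower of 33 with a value without a filter. The 31 tested gave 12 and 4, of which 1 and 1 also passed with the other tissues pooled. PSMC6, an ATPase of the regulatory particle, differed by 1.57 ± 0.25, and PSMF1, an inhibitor of the proteasome, by -1.75 ± 0.25. The regulatory subunit PSMD6 (1.53 ± 0.22) and the activator PSME4 (1.29 ± 0.22) did not pass with the other tissues pooled (adjusted p = 0.195 and 0.239), and PSME4 also not without the second embryo array (adjusted p = 0.0691).

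Of 28 genes of amino acid, polyamine and nucleotide synthesis with a value, 14 were higher and 1 was lower without a filter. The 23 tested gave 14 and 2, of which 8 and 0 also passed with the other tissues pooled. ODC1, the first enzyme of polyamine synthesis, read 535, 424 and 412 in embryos, 18.2 in liver and 9.62 to 43.5 in the other tissues (difference 2.54 ± 0.20, adjusted p = 0.000739). Purine synthesis enzymes were among them: ATIC differed by 1.61 ± 0.33, IMPDH2 by 1.5 ± 0.25 and GMPS by 1.42 ± 0.27. Without the second embryo array these 3 no longer passed (adjusted p = 0.0968, 0.0723 and 0.0821), nor did GMPS without the first (adjusted p = 0.0526).

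Sterol and fatty acid synthesis genes gave 5 higher and 2 lower of 17 tested. Of these calls, 4 and 1 also passed with the other tissues pooled. Without a filter 5 were higher and 3 lower of 21 with a value. ACLY, which makes cytosolic acetyl-CoA from citrate, read 1268, 918 and 796 in embryos and 33.3 in liver (difference 3.31 ± 0.28), with liver below the other tissues (-1.49 ± 0.27, adjusted p = 0.0149), but a further ACLY probe set read 160.2 in the embryo mean and 155 in liver. SCD, a fatty acid desaturase, read 506, 381 and 307 against 20.0 (difference 2.33 ± 0.28), but its further probe set differed by -0.75 ± 0.30 and the call was lost with the other tissues pooled (adjusted p = 0.11). ME1, a malic enzyme that makes NADPH, differed by 1.47 ± 0.23. MVD, of the mevalonate path, was lower in embryos at 20.4, 17.6 and 16.8 against 563 (difference -2.81 ± 0.09), and no other tissue exceeded 17.5.

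Oxidative phosphorylation genes gave 13 higher and 3 lower of 57 with a value without a filter. The 49 tested gave 16 and 2, of which 1 and 1 also passed with the other tissues pooled. NDUFB1, of complex I, read 719, 599 and 453 in embryos, 63.3 in liver and 259.7 to 946 elsewhere (difference 2.27 ± 0.27), so liver was the lowest of all arrays. NDUFA7, of the same complex, was lower in embryos at 20.6, 19.1 and 18.9 against 335 (difference -2.15 ± 0.08), and no other tissue exceeded 19.2. ATP5PF (1.98 ± 0.16) and NDUFA10 (1.17 ± 0.22) did not pass with the other tissues pooled (adjusted p = 0.0802 and 0.244), and NDUFA10 not without the second embryo array (adjusted p = 0.0663). Citric acid cycle genes gave 2 higher and 1 lower of 14 tested, the same counts of 18 without a filter, and 0 with the other tissues pooled. The 3 genes called were MDH1 (0.81 ± 0.17), PDHX (1.03 ± 0.18) and IDH3G (-1.15 ± 0.21), each also lost without the second embryo array (adjusted p = 0.104, 0.0757 and 0.053), and MDH1 without the first (adjusted p = 0.0616).

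Antioxidant genes gave 7 lower and 3 higher of 16 tested, 2 and 3 of these also with the other tissues pooled. Without a filter 7 were lower and 2 higher of 20 with a value. The median of -0.23 over the tested genes turned to 0.23 on the deposited intensities. It turned to 0.0697 with a filter at the 75th percentile or of 3 bright arrays. The peroxiredoxins, which reduce peroxides, were divided. PRDX1 read 1479, 1301 and 1418 in embryos and 229 in liver (difference 2.29 ± 0.17, adjusted p = 0.000594), and PRDX2 1024, 871 and 902 against 14.8 (difference 3.53 ± 0.18, adjusted p = 0.000196). PRDX6 was lower in embryos, at 167, 174 and 175 against 710.2 (difference -1.68 ± 0.16, adjusted p = 0.00148). Liver was below the other tissues for PRDX1 and PRDX2 (-1.09 ± 0.16 and -1.58 ± 0.17) and above them for PRDX6 (1.82 ± 0.15). Catalase, CAT, read 3.19, 1.70 and 1.91 against 182 (difference -1.77 ± 0.12), with the call lost when the other tissues were pooled (adjusted p = 0.0946).

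**Figure D4:**
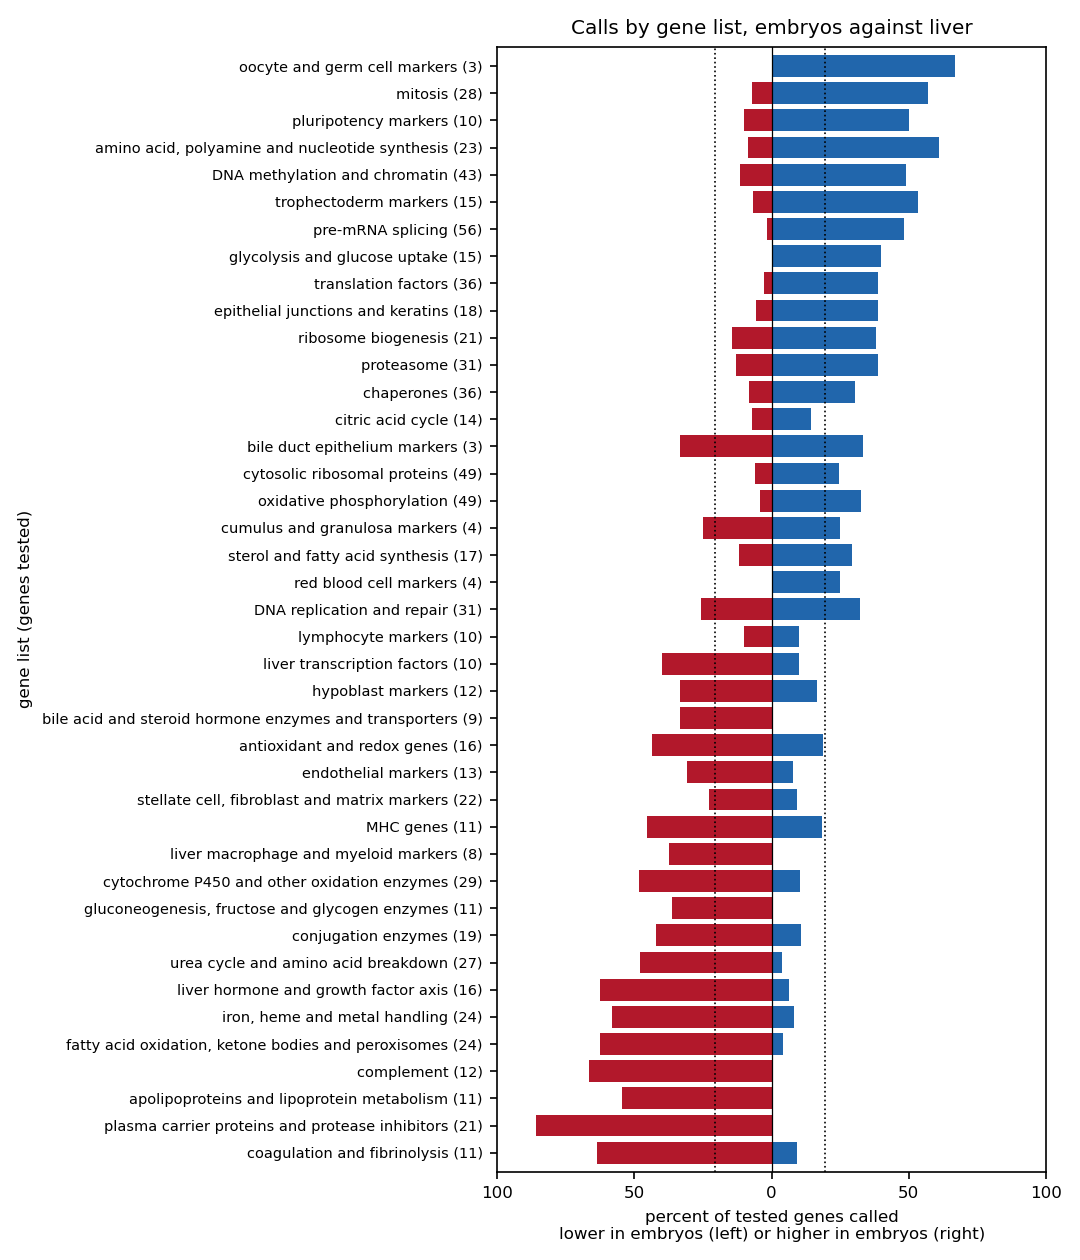
Percent of tested genes called lower (red, left) or higher (blue, right) in embryos than in liver at an adjusted p of 0.05, for the gene lists with at least 3 tested genes, ordered by their median difference. Numbers in brackets are genes tested, and the dotted lines mark the percent called over all 4741 genes, 20.8% lower and 19.4% higher.

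The 12 largest differences towards embryos, from 3.19 to 4.45, were those of NTNG1, SFN, TIAM1, SOX2, PRDX2, DLEC1, STMN1, ACLY, PDPN, KLF4, MELK and TPM4. NTNG1, a membrane-bound relative of the netrins, read 1998, 1425 and 1503 in embryos, 5.70 in liver and 27.5 to 75.7 in the other tissues (difference 4.45 ± 0.24, adjusted p = 0.000237). DLEC1 read 786, 839 and 855 against 8.20 (difference 3.48 ± 0.16), and its 2 further probe sets differed by 3.49 and 3.46. TPM4, a tropomyosin of non-muscle cells, read 939, 931 and 732 against 29.9 (difference 3.19 ± 0.21). Other members of this set were also bright in an adult tissue. TIAM1, an activator of the small GTPase RAC, read 1162, 1101 and 1072 in embryos and 16.0 in liver but reached 1173 in another tissue. STMN1, a microtubule destabiliser, read 1181, 1152 and 1551 against 58.1 and reached 2024. PDPN, a membrane glycoprotein, read 848, 754 and 693 against 15.4 and reached 553. For TIAM1 and STMN1 liver was below the mean of the other tissues (-1.55 ± 0.16 and -2.62 ± 0.21, adjusted p = 0.00206 and 0.000958).

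The 12 largest differences towards liver were not genes of the liver function lists. They were LHX1, IBSP, ZNF574, WDR25, UPF1, MAP3K1, FUT4, EPM2A, FBXO24, CSNK1D, TEC and HERC2P3, at -6.88 to -4.86. LHX1, a transcription factor of the early embryo and kidney, read 0, 0 and 0.0900 in embryos and 8428 in liver, and at most 0.180 elsewhere (difference -6.88 ± 0.10, adjusted p = 1.68e-05). IBSP, a bone matrix protein, read 23.3, 3.63 and 5.40 against 6224 (difference -6.25 ± 0.18), and UPF1, a helicase of nonsense-mediated decay present in most cells, 0.270, 1.16 and 0.205 against 3779 (difference -5.73 ± 0.10). All 12 read 2248 to 8428 in liver and at most 125 on any of the 9 other arrays. Of the 58 probe sets above 1000 and over 10 times every other array in liver, 5 carried a symbol of the 10 liver function lists. Among such probe sets of the other tissue arrays, 1 of 16 in lung carried one. In brain, heart, kidney, muscle and spleen it was 0. Of all 984 genes called lower, 100 were in these lists, against 10 of the 919 called higher. The share of these lists over all probe sets was not counted. Of these 12 genes CSNK1D and EPM2A had further tested probe sets, none of which passed. For CSNK1D, a casein kinase, the further probe set read 238, 359.9 and 187 in embryos and 347 in liver (difference -0.36 ± 0.32, adjusted p = 0.413). EPM2A, a glycogen phosphatase, read 46.2, 64.2 and 45.8 against 5038 on its brightest probe set. On 2 further EPM2A probe sets it read 305, 299.7 and 379 against 299.7, and 138, 143 and 278 against 55.7, and neither passed (adjusted p = 0.712 and 0.0787).

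Further tested probe sets of the same gene give a second reading within these 4 arrays, but each had to pass the same filter. A further probe set tested through liver alone had to be lower in embryos, so the filter set part of these shares. For genes of the 10 liver function lists called lower in embryos, 21 of 27 further probe sets (77.8%) had the same call and 0 the opposite call. For called-lower genes in no list, 53 of 138 (38.4%) had the same call and 16 the opposite. Over all genes called lower, 90 of 194 (46.4%) had the same call and 17 the opposite. Over all genes called higher, 142 of 270 (52.6%) had the same call and 15 the opposite. The difference between these shares was not tested, and probe sets of 1 gene share the same 4 RNA samples.

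**Figure D5:**
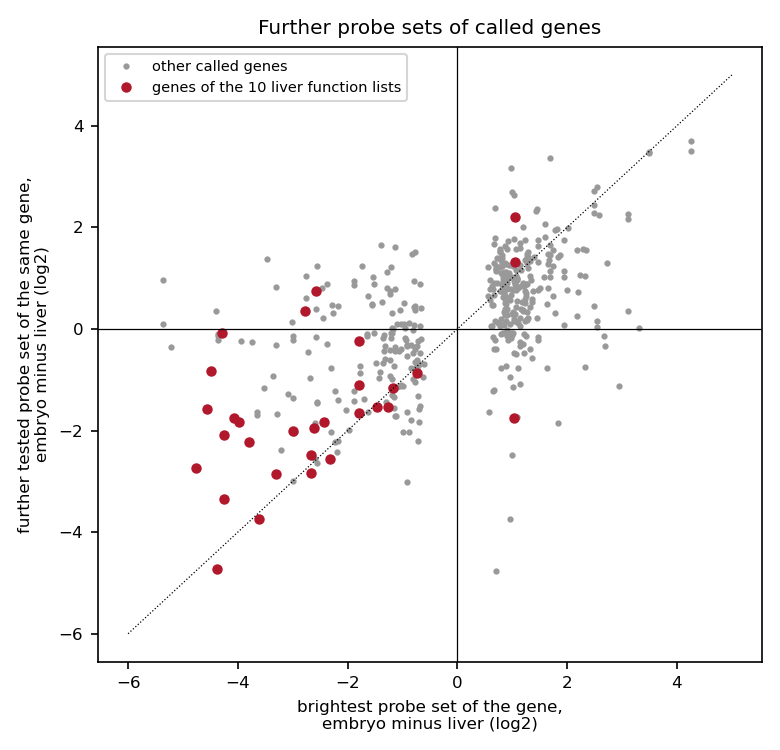
Difference, embryo minus liver on the log2 scale, of the brightest probe set of each called gene (horizontal) against each further tested probe set of the same gene (vertical). Red points are genes of the 10 liver function lists, grey points all other called genes, and the dotted line marks equal differences. Of the further probe sets of red genes called lower, 21 of 27 were also called lower.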

How the data were processed

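Bovine total RNA was hybridised to human expression arrays, 3 of IVF embryos, 1 of liver and 6 of other adult tissues. The authors deposited linear intensities, 1 value per probe set and array, for 22283 probe sets. Of these, 12064 were blank on every array and 10219 had values, 33 of them controls. How they were summarised, scaled or blanked is not stated in the sources used here. Groups came from the titles. Of the 10186 probe sets used, 8847 have 1 gene symbol in the platform annotation, 479 have several and 860 have none, and of 6732 distinct symbols 6305 also occur in the bovine gene table. Genes were named only from probe sets with 1 symbol.

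Here all 10 arrays were quantile normalised, 72.2 (the median of the arrays' 25th percentiles) was added and log2 taken. Probe sets with the embryo mean or the liver value above 145.7, the common median, were tested in 1 fit of 8 groups with limma 3.58.1 (R 4.3.3; trend and robust empirical Bayes) and Benjamini-Hochberg adjustment at 0.05. The fit has 2 residual degrees of freedom, all from the embryos. Python 3.11.15, pandas 2.3.3 and matplotlib 3.10.9 did the rest. The steps were tested on simulated data, with changes planted only in probe sets bright in embryos and the embryo spread given to every array. Probe sets bright in liver alone and an unusual liver array were not covered by that test. The number of arrays limits the precision. Named genes are the 12 largest differences in each direction, up to 4 called genes of largest difference per list, fixed markers and enzyme families. Probe sets beyond the brightest are named after their values were seen. The members, lists and tests were chosen with earlier results of these data known. Alternatives changed scaling, offset, filter, error model and arrays. No genome or sequence was used here.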

Additional observations from a re-analysis of the deposited data

Results flagged for a closer look

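The spike-in control AFFX-r2-Bs-lys-M_at, a Bacillus subtilis lys probe set that reads no bovine gene, had a deposited intensity of 16221 on the liver array and of 0 to 10.8 on the 9 other arrays. It was singled out because it lies outside the gene probe sets and stood above the level of every other array. The other lys controls did not stand high on the liver array. AFFX-r2-Bs-lys-3_at had 51.7 in liver and 42.5 to 294.5 on the 9 other arrays. AFFX-LysX-M_at had 7.7 in liver and 104.7 to 326.7 on the others. The part of AFFX-r2-Bs-lys-M_at in the liver values was not tested. On the same array 202 probe sets above the common median read over 10 times every other array. Of these, 173 carried 1 gene symbol and 32 a symbol of the 10 liver function lists, whose share over all probe sets was not counted. The counts corresponding to the 202 were 128 in brain, 47 in muscle, 37 in lung, 24 in heart, 14 in spleen and 12 in kidney. Liver function lists held 2 of the 29 with 1 gene symbol in lung, 1 of 42 in muscle and 1 of 13 in spleen. In brain they held 0 of 120, in heart 0 of 20 and in kidney 0 of 10.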

How the results depend on the processing

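On the deposited intensities 816 probe sets were lower, 1634 at least 2-fold higher, and 781 higher in liver than in the other tissues, against 1385, 908 and 1257 by quantile normalization. With an offset 4 times larger, 234 were at least 2-fold higher and 498 lower. With a filter of 3 bright arrays 679 were lower, 402 at least 2-fold, and 501 were higher in liver than elsewhere. With the 6 other tissues as a group 511 were higher (462 at least 2-fold), 785 lower and 749 higher in liver than elsewhere. With the embryo arrays averaged the counts were 142 higher, 465 lower and 608 in liver over the others, all embryo differences being at least 2-fold. With 1 probe set per gene, which tests fewer, 912 were higher (579 at least 2-fold). Asking for 2 or more probe sets per gene, chosen after seeing the data, left 272 higher and 179 lower (147 and 112 at least 2-fold). Leaving out 1 embryo array gave 457 to 1817 higher, 803 to 1561 lower, 455 to 1034 and 801 to 1031 at least 2-fold, and 715 to 1598 for liver over the others. Where no value shows it, the cause was not tested.

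List medians changed sign as follows. On the deposited intensities they became 0.26 for bile acid genes, 0.39 for liver transcription factors, 0.078 for stellate, 0.19 for endothelial, 0.44 for lymphocyte and 0.38 for hypoblast markers and 0.23 for antioxidant genes. With 3 bright arrays they became 0.061 for bile acid genes, 0.012 for liver transcription factors and 0.0697 for antioxidant genes, and at the 75th percentile 0.051 for endothelial, 0.082 for lymphocyte and 0.0697 for antioxidant genes. With a common median they became -0.15 for cumulus markers and -0.11 for ribosomal proteins, and with no offset -0.051 for cumulus markers. Over every gene with a value, without a filter, they became 0.0587 for bile acid genes, 0.0508 for endothelial, 0.14 for lymphocyte, 0.0237 for hypoblast and -0.15 (from 0.23) for bile duct markers. PFKM and PYGB, not called, turned to 0.33 and 0.38 on the deposited intensities. Of the 181 named genes tested, 39 lost the call with the other tissues as a group and 93 with averaged embryo arrays.

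No paired analysis was possible because the tissue arrays carry no replicate numbers and liver has 1 array. The single liver array sets every difference, and no value measures its spread. A low reading of a human probe set does not separate sequence mismatch from a low transcript level.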
